A study of Mus musculus with 14 samples.

Results

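The 7 genes described here encode the machinery of MHC class II antigen presentation in the mouse: the chains H2-Aa, H2-Ab1 and H2-Eb1, the invariant chain Cd74, the peptide exchange factors H2-DMa and H2-DMb1, and the transactivator Ciita. They were taken by symbol from the 47642 genes of a table of counts, and all 7 had enough counts for the fit across 11563 genes. They were chosen with their difference between genotypes in these libraries already known, so that difference is described below and not tested. The libraries came from left ventricles of adult male mice, 40 days old, of 2 genotypes with 7 mice each. UtyGT mice carry the gene trap Gt(XS0378)Wtsi in an intron of Uty on chromosome Y, introduced through 129P2-derived ES cells and backcrossed to C57BL/6J, and the isogenic WT mice carry the 129P2 chromosome Y without the trap on the same background. The trap is present in all cells of the animal, and whole ventricle was used with no sorting of cells.

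MHC class II molecules are heterodimers of an alpha and a beta chain that show peptides from endocytosed proteins to CD4+ T cells. They are assembled with the invariant chain, whose CLIP fragment fills the groove until DM exchanges it for another peptide in a late endosome. In most tissues they are made by dendritic cells, B cells and part of the macrophages, and in the heart resident macrophages are divided by whether they carry them. Their genes share a promoter module of S, X and Y boxes, on which RFX, CREB and NF-Y assemble and recruit CIITA, itself induced by interferon gamma. In whole ventricle, fewer class II cells and less class II RNA per cell cannot be told apart.

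The members' promoters are shown because this shared module is what ties the genes to CIITA. Of the 7 members, 4 matched RefSeq promoter sequences by symbol (GRCm38.p6, 250 bases before to 50 bases after the start). Those of H2-DMa lie 9664 and 12350 bp away from the start of the gene in the table of counts and are not shown. In the sequences of H2-Aa (chr17:34287774-34288073, minus strand), H2-Eb1 (chr17:34305617-34305916, plus strand) and H2-DMb1 (chr17:34152941-34153240, plus strand), capitals mark GNAAC, the core of the X box that RFX contacts, and ATTGG, the core of the Y box read by NF-Y.
H2-Aa promoter: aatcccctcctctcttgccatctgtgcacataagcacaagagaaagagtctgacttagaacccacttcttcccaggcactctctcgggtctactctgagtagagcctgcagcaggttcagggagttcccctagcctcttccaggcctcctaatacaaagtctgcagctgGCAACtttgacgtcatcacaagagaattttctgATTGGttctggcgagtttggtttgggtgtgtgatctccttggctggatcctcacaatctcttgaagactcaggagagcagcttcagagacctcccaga
H2-Eb1 promoter: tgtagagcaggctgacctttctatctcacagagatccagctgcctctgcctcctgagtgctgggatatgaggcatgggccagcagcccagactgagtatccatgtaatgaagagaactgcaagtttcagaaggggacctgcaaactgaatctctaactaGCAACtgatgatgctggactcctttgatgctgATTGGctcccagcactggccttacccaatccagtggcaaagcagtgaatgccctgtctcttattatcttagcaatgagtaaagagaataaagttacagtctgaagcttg
H2-DMb1 promoter: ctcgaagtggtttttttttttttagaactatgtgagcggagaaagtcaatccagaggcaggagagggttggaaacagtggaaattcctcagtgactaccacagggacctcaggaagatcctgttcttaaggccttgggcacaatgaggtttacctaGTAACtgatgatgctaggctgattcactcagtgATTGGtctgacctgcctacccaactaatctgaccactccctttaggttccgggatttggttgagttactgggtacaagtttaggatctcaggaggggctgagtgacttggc

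The cores were separated by 28 bases in H2-Aa, 27 in H2-Eb1 and 28 in H2-DMb1, with the Y box 48, 59 and 61 bases before the RefSeq start in the same order of genes. The start of H2-DMb1 in the table of counts lies 119 bp from that of RefSeq. In H2-Aa the palindrome TGACGTCA, a CREB site, stood just behind the X box core. Outside the 7 members, the pair was not found in the promoter of H2-DMb2 but was found in those of 3 other class II genes, and the stretches of H2-Oa (within chr17:34092129-34092428), H2-Ob (within chr17:34238655-34238954) and H2-Eb2 (within chr17:34325425-34325724), all on the plus strand, are shown to compare their spacing, which was 28, 25 and 27 bases.
H2-Oa: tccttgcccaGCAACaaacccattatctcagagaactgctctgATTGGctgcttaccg
H2-Ob: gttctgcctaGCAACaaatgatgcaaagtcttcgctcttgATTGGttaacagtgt
H2-Eb2: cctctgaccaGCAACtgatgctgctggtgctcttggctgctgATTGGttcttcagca

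The letters searched and the spacing allowed, 25 to 32 bases between GNAAC and ATTGG on the strand of the gene, were chosen after these promoters had been read. The pair was found in 0.658% of 32851 RefSeq promoters of the same length on the strand of the gene and in 1.39% on either strand. Single cores were common, with ATTGG in 37.4% and GNAAC in 84.8% of promoters on either strand, and TGACGTCA was found in 1.79%. These matches describe sequence and do not show binding.

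Each read of these QuantSeq 3′ FWD libraries comes from the 3′ end of a polyadenylated transcript, and levels are given as counts scaled to library size (CPM) with TMM factors. Reads assigned to genes totalled 6357485 to 10268706 per UtyGT library and 6322161 to 9397378 per WT library. Uty had 1 to 6 counts in UtyGT libraries and 47 to 75 in WT libraries, so that every library matched its label. Libraries are numbered as the columns of the deposited table, in which replicate numbers do not pair animals. A gene is said to be called where the adjusted p of edgeR's quasi-likelihood test was below 0.05 over all tested genes. On that measure 8.03% of all tested genes differed, 4.7% being higher in UtyGT and 3.34% lower.

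Among the chains that form the class II heterodimer, H2-Aa, which encodes the alpha chain of I-A (ENSMUSG00000036594, chr17:34282744-34287827), ranged between 22.9 and 82.2 CPM in UtyGT (median 61.5) and between 80.7 and 165 CPM in WT (median 87.1). Of the UtyGT libraries, 5 lay below the lowest WT library and the remaining ones, UtyGT 4 and UtyGT 5, lay within the range of WT. H2-Aa averaged 54.9 ± 24.1 CPM in UtyGT and 98.6 ± 29.9 CPM in WT (SD, n = 7 each), or 55.7% of WT (log2 fold change of UtyGT over WT -0.85 ± 0.27, SE). H2-Ab1, which encodes the partner beta chain (ENSMUSG00000073421, chr17:34263209-34269418), had a range of 8.42 to 28.2 CPM in UtyGT (median 26.5), against 26.2 to 47.5 CPM in WT (median 29.0). Here only 3 UtyGT libraries were below all WT libraries, and the others lay close to the lower end of WT. It averaged 21.5 ± 8.25 CPM in UtyGT and 31.5 ± 7.38 CPM in WT, which is 68.2% of WT, the highest share among the 7 members (log2 fold change -0.56 ± 0.24).

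H2-Eb1, the beta chain of I-E (ENSMUSG00000060586, chr17:34305877-34316199), ranged between 12.5 and 33.6 CPM in UtyGT (median 29.4) and between 32.6 and 66.3 CPM in WT (median 47.7). Only UtyGT 4 reached the range of WT, where it lay just above WT 6, and 6 UtyGT libraries were below all WT libraries. Means were 25.5 ± 8.49 CPM in UtyGT and 48.2 ± 11.4 CPM in WT, or 52.9% of WT (log2 fold change -0.92 ± 0.22). In C57BL/6 mice the alpha chain that would pair with this product is not made, because its gene is a pseudogene, so that H2-Eb1 transcripts are not matched by I-E at the cell surface. That pseudogene, H2-Ea-ps, was not detected in any of the 14 libraries, and 0 of 110927885 counts leave room for at most 3 counts (counting error only).

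Cd74 encodes the invariant chain, which escorts new class II dimers to endosomes and is also a surface receptor for the cytokine MIF. Its transcripts (ENSMUSG00000024610, chr18:60803848-60812646) ranged between 5.73 and 22.9 CPM in UtyGT (median 14.4) and between 20.5 and 40.8 CPM in WT (median 24.7). UtyGT 2 alone overlapped WT, and the other 6 UtyGT libraries were below the lowest WT library. Cd74 averaged 13.6 ± 6.16 CPM in UtyGT and 28.6 ± 7.80 CPM in WT, or 47.4% of WT, the lowest share among the members (log2 fold change -1.08 ± 0.27). The microRNA gene Mir5107 lies within it on the same strand.

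H2-DMa and H2-DMb1 encode the chains of DM, which removes CLIP from the groove of class II molecules. H2-DMa (ENSMUSG00000037649, chr17:34135182-34139101) was measured at 1.40 to 5.45 CPM in UtyGT (median 4.78) and at 3.26 to 9.75 CPM in WT (median 6.95). Its ranges overlapped through WT 6 alone, which was lower than every UtyGT library except UtyGT 7. The other 6 WT libraries lay above the highest UtyGT library. The means were 4.25 ± 1.40 CPM in UtyGT and 7.06 ± 2.22 CPM in WT, or 60.2% of WT (log2 fold change -0.74 ± 0.27).

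H2-DMb1 (ENSMUSG00000079547, chr17:34153072-34160230) was measured at 2.69 to 7.40 CPM in UtyGT (median 4.31) and at 4.57 to 14.4 CPM in WT (median 9.25). In this gene 4 UtyGT libraries lay below all WT libraries, and WT 6 was again the lowest of its genotype. Means were 4.79 ± 1.81 CPM in UtyGT and 9.61 ± 3.12 CPM in WT, or 49.9% of WT (log2 fold change -1.003 ± 0.26). Over its last 500 nt, 92 of 451 windows of 50 nt (20.4%) occur also in transcripts of the neighboring copy H2-DMb2, so reads may be split between both genes and the value is uncertain to that extent. H2-DMb2 itself had a summed count of 38 in UtyGT and 56 in WT, too few for the fit.

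Ciita, the coactivator on which expression of the other members depends (ENSMUSG00000022504, chr16:10488178-10527564), was close to the limit of detection. It had 3 to 15 counts in UtyGT libraries (68 in all) and 2 to 27 in WT libraries (106 in all). In CPM this was 0.422 to 2.30 in UtyGT (median 1.16) and 0.261 to 3.67 in WT (median 1.84), and every UtyGT library lay inside the range of WT. The means of 1.24 ± 0.616 CPM in UtyGT and 2.01 ± 1.38 CPM in WT correspond to 61.5% of WT, with a 95% interval of the log2 fold change (-0.70 ± 0.46) of -1.67 to 0.28. No difference in Ciita was detectable at this depth. Dexi, on the opposite strand, overlaps Ciita at 74.3 ± 13.4 CPM in UtyGT and 69.3 ± 14.9 CPM in WT, and the sources used here do not say whether counting used strand.

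**Figure D1:**
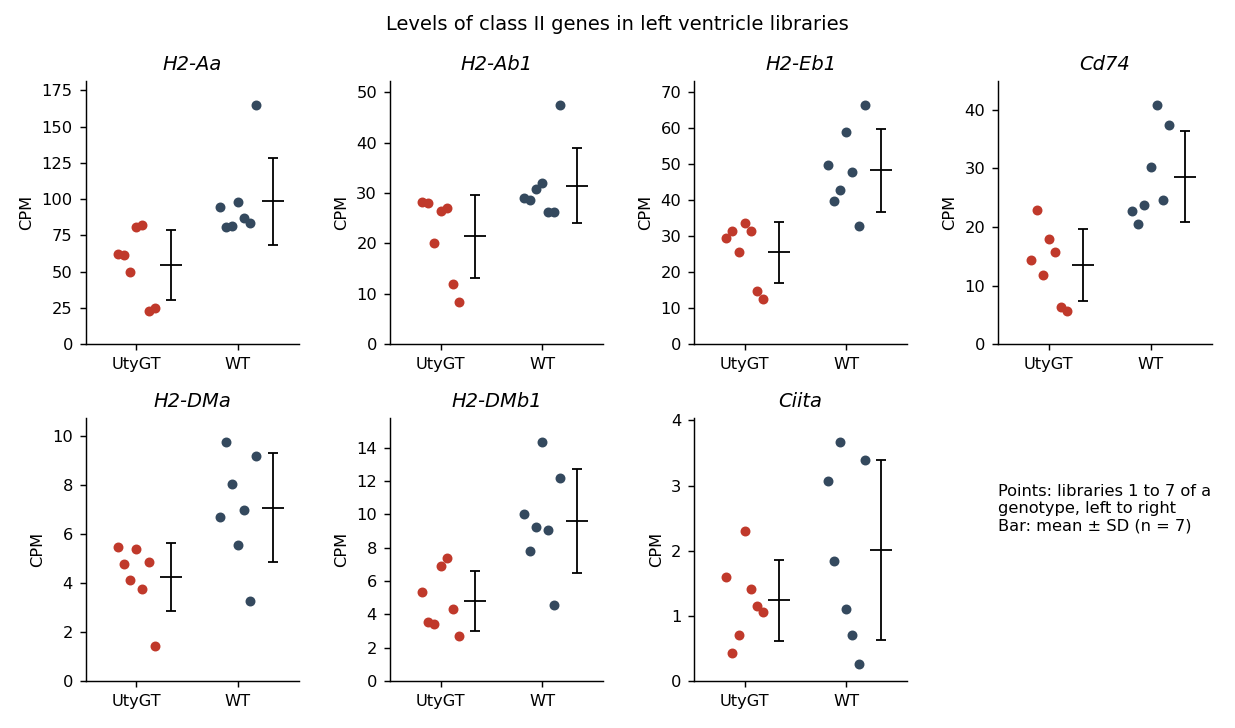
Level of each member in CPM (vertical axes, each from 0) in 7 UtyGT libraries (left, red) and 7 WT libraries (right, blue), with 1 point per library and bars at the mean ± SD. UtyGT and WT points overlap in every panel, by UtyGT 2 alone in Cd74 and over the whole UtyGT range in Ciita.

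All 7 members had a log2 fold change below 0, as had 48.9% of all tested genes, and the median over the members was -0.85 against 0.01 over all tested genes. In UtyGT 3 of 7 members were called lower (Cd74, H2-Eb1 and H2-DMb1), against 3.34% of all tested genes, and no member was among the 0.675% of genes with all UtyGT libraries below all WT libraries. Because the members were picked from this contrast, nothing is read from these counts. With GC correction Cd74 was no longer called and H2-Aa was. The number called was 5 without UtyGT 6 (with H2-Aa and H2-DMa added), 4 without UtyGT 5 (H2-Aa added) or without WT 6 (H2-DMa added), 1 without UtyGT 3 (H2-Eb1), and 2 without UtyGT 2, UtyGT 7 or WT 4 (Cd74 and H2-Eb1) or without WT 5 (H2-Eb1 and H2-DMb1).

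The members were next followed across libraries. Summed over the 7 genes, class II transcripts averaged 126 ± 47.9 CPM in UtyGT and 226 ± 55.0 CPM in WT. Among UtyGT libraries 5 had 115 to 174 CPM, and a pair was lower, UtyGT 6 with 66.3 CPM and UtyGT 7 with 56.5 CPM. WT libraries ran between 175 CPM in WT 6 and 341 CPM in WT 7. Every UtyGT library was thus below every WT library in the sum, with UtyGT 4 at 174 CPM just below WT 6. No single member separated the genotypes. The members were picked from this contrast, so nothing is read from the separation of their sum. H2-Aa contributed the most counts to this sum. Without UtyGT 6 and UtyGT 7, a choice made after seeing the data, the median log2 fold change of the members was -0.64 and 3 of 7 remained called, Cd74, H2-Eb1 and H2-DMb1. Without WT 7 the median was -0.68.

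UtyGT 7 was the lowest UtyGT library for Cd74, H2-Ab1, H2-Eb1, H2-DMa and H2-DMb1, UtyGT 6 for H2-Aa, and UtyGT 2 for Ciita. UtyGT 6 was low in the 3 chains and Cd74 but not in DM, with 4.84 CPM of H2-DMa, close to the UtyGT median of 4.78 CPM. WT 7 had the highest WT level of H2-Aa, H2-Ab1 and H2-Eb1. WT 6, lowest of WT in H2-DMa, H2-DMb1, H2-Eb1 and Ciita, had 83.9 CPM of H2-Aa, near the WT median.

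**Figure D2:**
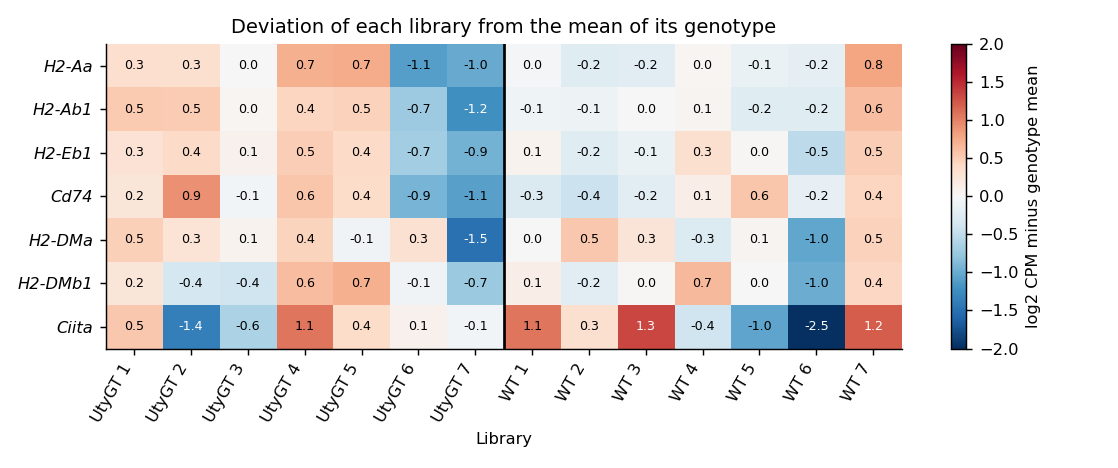
Deviation of log2 CPM of each member (vertical) from the mean of its genotype in each library (horizontal, 7 UtyGT libraries left of the black line and 7 WT libraries right of it), with red for above and blue for below the mean. UtyGT 6 and UtyGT 7 are blue in the 3 chains and Cd74, WT 7 is red in all 7 members, and Ciita departs most from the pattern of the others.

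Whether the members vary together was examined within each genotype, where the difference that chose them plays no part. Correlations of H2-Aa with the other 6 members were computed on log2 CPM over the 7 libraries of each genotype, with exact two-sided permutation over 5040 pairings and adjustment over 12 relations, the smallest attainable p being 0.000397. In UtyGT, H2-Eb1 had r = 0.97 (exact p = 0.00317, adjusted p = 0.0381) and rho = 0.79 (exact p = 0.0480, adjusted p = 0.144), with r = 0.87 after UtyGT 6 and UtyGT 7, the libraries farthest from the median of H2-Aa, were left out. H2-Ab1 had r = 0.94 in UtyGT (exact p = 0.00893, adjusted p = 0.0429; rho = 0.68, exact p = 0.110, adjusted p = 0.219) and r = 0.64 without those libraries. Cd74 had r = 0.92 in UtyGT (exact p = 0.0111, adjusted p = 0.0429; rho = 0.71, exact p = 0.0881, adjusted p = 0.211) but r = 0.42 without them, so its relation rested on UtyGT 6 and UtyGT 7.

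In WT the relation of H2-Aa with H2-Eb1 was r = 0.79 (exact p = 0.0143, adjusted p = 0.0429; rho = 0.89, exact p = 0.0123, adjusted p = 0.144) and r = 0.61 without WT 4 and WT 7. H2-Ab1 had r = 0.93 in WT (exact p = 0.0304, adjusted p = 0.0729; rho = 0.57, exact p = 0.20, adjusted p = 0.30) and r = -0.13 without them, so that this value rested on WT 4 and WT 7. The 3 chains lie next to each other on chromosome 17. The other 7 relations, those of H2-DMa, H2-DMb1 and Ciita in each genotype and of Cd74 in WT, had Pearson r between 0.24 (Ciita in UtyGT) and 0.70 (H2-DMb1 in UtyGT), with rho between -0.25 and 0.79, and none had an adjusted p below 0.05. In all, 4 of 12 relations were below 0.05 by Pearson's r and 0 of 12 by Spearman's rho, whose lowest adjusted p was 0.144.

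With both genotypes centred on their own means, the correlation over all 14 libraries was 0.94 between H2-Aa and H2-Ab1, 0.93 between H2-Aa and H2-Eb1 and 0.87 between Cd74 and H2-Eb1, given as a description. Against the mean of the other 6 members, r was 0.93 for H2-Eb1, 0.89 for H2-Ab1, 0.85 for H2-Aa, 0.73 for H2-DMb1, 0.69 for Cd74, 0.65 for H2-DMa and 0.34 for Ciita. Thus over all 14 libraries the classical chains followed each other most closely and Ciita, with the fewest counts, least. This order depended on few libraries. Within UtyGT, without UtyGT 6 and UtyGT 7, r with H2-Aa was 0.91 for H2-DMb1, 0.87 for H2-Eb1 and 0.67 for Ciita. It was 0.64 for H2-Ab1, 0.42 for Cd74 and 0.05 for H2-DMa. All values share the depth and scaling of their library.

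Proportions between members removed the scaling of libraries. For each 100 counts of H2-Aa there were 40.4 ± 7.48 counts of H2-Ab1 in UtyGT and 32.4 ± 3.21 in WT, 49.2 ± 8.45 counts of H2-Eb1 in UtyGT and 49.7 ± 7.68 in WT, and 25.2 ± 5.93 counts of Cd74 in UtyGT and 29.8 ± 8.11 in WT (SD, n = 7 each). The share of H2-Ab1 was thus somewhat greater in UtyGT, with overlapping ranges of 32.7 to 51.8 in UtyGT and 28.8 to 37.8 in WT. H2-DMa stood at 8.98 ± 5.55 in UtyGT and 7.44 ± 2.81 in WT, and H2-DMb1 at 9.77 ± 4.31 in UtyGT and 9.94 ± 2.94 in WT. These proportions use the contrast that chose the members and were not tested.

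The genes most like the members were sought in the 8905 genes that averaged 5 CPM or more, by Pearson's r of genotype-centred log2 CPM with the mean of the members over 14 libraries. The 10 highest were Top2a (0.90), Dtx2 (0.89), Rnf152 (0.85), Ift122 (0.84), Gnb4 (0.82), Cenpf (0.82), Klf11 (0.82), Trp53i11 (0.81), Ramp1 (0.81) and Afdn (0.80), while 95% of the genes had r below 0.46 and 99% below 0.64. Top2a encodes topoisomerase II alpha and Cenpf a kinetochore protein, both made in dividing cells. None of the 10 was called between genotypes (edgeR adjusted p of 0.124 for Ramp1 and 0.314 or more for the others). The list depended on single libraries: 3 of the 10 kept their place without UtyGT 7 or without WT 7, 5 without UtyGT 5 and 6 without WT 6.

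Other genes of the pathway were counted by role. Of the other class II genes, H2-Oa and H2-Ob, which encode the DM inhibitor DO, had summed counts of 9 and 40 in UtyGT against 4 and 35 in WT, and H2-Eb2 had none. Of 7 genes of factors that bind the class II promoter, 0 were called (median log2 fold change 0.18, with 1 at an unadjusted p under 0.05 by edgeR and 0 called by DESeq2). Among them Rfx5, which encodes the largest RFX subunit, was measured at 7.55 ± 1.499 CPM in UtyGT and 7.68 ± 1.68 CPM in WT (log2 fold change -0.02 ± 0.17, edgeR adjusted p = 0.951). The transcripts of these factors were therefore not detectably different, with 1 called lower without UtyGT 6.

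Of 9 genes for endosomal processing and turnover of class II, 0 were called by edgeR (median 0.10, with 1 higher and 1 lower at an unadjusted p under 0.05) and 1 was called higher and 1 lower by DESeq2, as also by edgeR without UtyGT 6 or without WT 7. Ctss, encoding the cathepsin that trims the invariant chain, had 25.4 ± 4.27 CPM in UtyGT and 25.2 ± 6.85 CPM in WT (log2 fold change 0.01 ± 0.16, edgeR adjusted p = 0.968). Ifi30, encoding the lysosomal thiol reductase GILT, had 4.68 ± 1.63 CPM in UtyGT and 3.44 ± 1.12 CPM in WT (log2 fold change 0.44 ± 0.26, edgeR adjusted p = 0.297). Neither differed beyond the spread between libraries. Of 3 genes for the CD74 ligands and their partner CD44, 0 were called by edgeR or DESeq2 (median -0.33, with 1 lower at an unadjusted p under 0.05). Mif, the ligand, was at 33.0 ± 7.66 CPM in UtyGT and 42.6 ± 11.5 CPM in WT (log2 fold change -0.37 ± 0.18, edgeR adjusted p = 0.212, and 0.0353 without UtyGT 6, which is also its highest in UtyGT).

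Interferon gamma is an inducer of Ciita, and its own transcript, Ifng, had 2 counts over all UtyGT libraries and 0 over all WT libraries. Of 8 tested genes of its signalling pathway, 0 were called by edgeR (median -0.07, with 1 higher and 1 lower at an unadjusted p under 0.05) and 1 was called lower by DESeq2, and by edgeR without UtyGT 5 or without UtyGT 6, while 1 was called higher without WT 1. Of 10 tested interferon-induced GTPase genes, 1 was called higher and 0 lower, with a median log2 fold change of 0.44 and 4 higher and 0 lower at an unadjusted p under 0.05 (1 higher and 0 lower by DESeq2). The gene called was Gbp3, encoding a guanylate-binding protein, at 8.82 ± 1.75 CPM in UtyGT (6.75 to 11.4) and 4.72 ± 1.49 CPM in WT (3.31 to 7.49), a log2 fold change of 0.90 ± 0.20 (edgeR adjusted p = 0.0133, range over alternatives 0.000753 to 0.0349). Without UtyGT 6, 3 of these genes were called higher.

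In the MHC class I pathway, part of which lies between the class II genes on chromosome 17, 1 of 13 tested genes was called higher and 0 lower (median -0.04, with 1 higher and 2 lower at an unadjusted p under 0.05, and 1 higher and 0 lower by DESeq2), while 2 were called higher without WT 7 and 1 was called lower without UtyGT 6. The gene called was Psmb8, which encodes an immunoproteasome subunit, with 14.5 to 29.7 CPM in UtyGT (median 24.2) and 8.01 to 20.8 CPM in WT (median 13.2). Its ranges overlapped, and it averaged 23.7 ± 4.88 CPM in UtyGT and 13.7 ± 3.81 CPM in WT (log2 fold change 0.79 ± 0.18, edgeR adjusted p = 0.0178, range over alternatives 0.00236 to 0.0440). Of the 13 class I genes, 6 had a log2 fold change above 0 and 7 below 0.

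**Figure D3:**
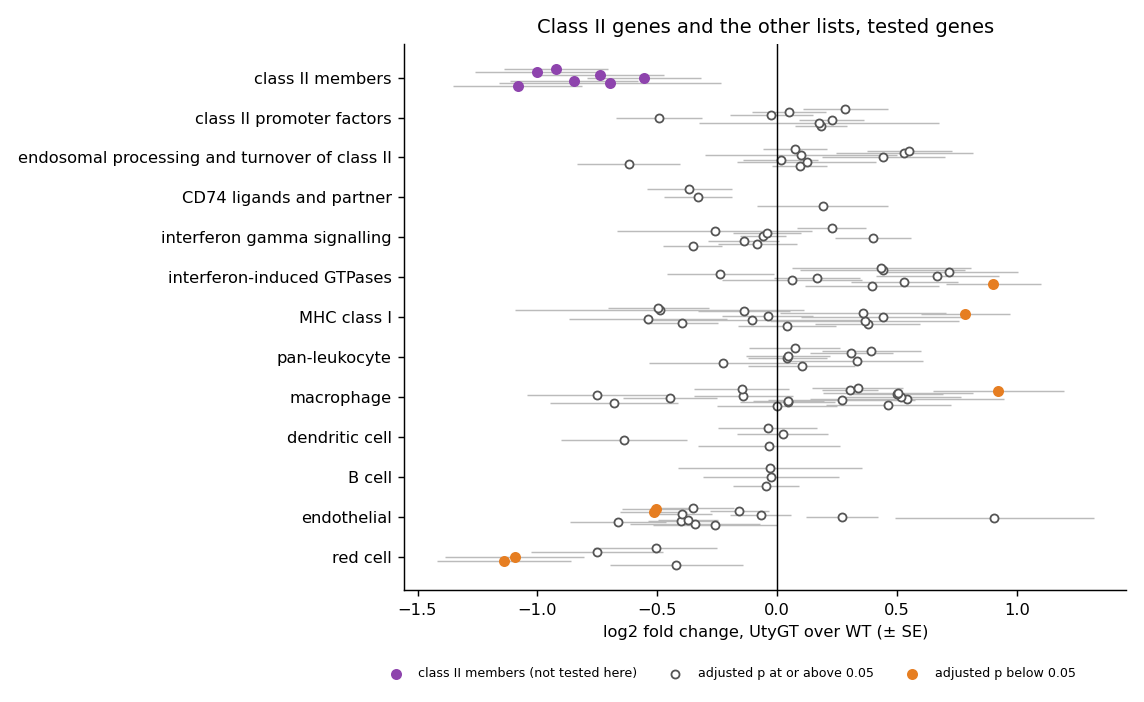
Log2 fold change of UtyGT over WT with its SE (horizontal axis, bars) for each tested gene of the class II, pathway, leukocyte, endothelial and red cell lists (vertical), with the class II members at the top in purple, genes with an edgeR adjusted p below 0.05 in orange and all others open. The members lie between -1.08 and -0.56, and Gbp3, Psmb8 and Lyve1 are the orange points on the right.

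Genes within 200 kb of a member were compared to see how far the pattern extended along the chromosomes. Of 24 such genes tested, 1 was called higher and 1 lower, with a median log2 fold change of -0.12, and at an unadjusted p under 0.05 the numbers were 2 and 4. The gene called higher was Psmb8, 37491 bp from H2-DMb1. The gene called lower was Synpo, encoding the actin-binding protein synaptopodin, near Cd74, with 57.5 ± 13.2 CPM in UtyGT and 96.5 ± 35.0 CPM in WT (log2 fold change -0.75 ± 0.19, edgeR adjusted p = 0.0281). Its adjusted p was 0.0506 to 0.0652 without UtyGT 1, UtyGT 2, UtyGT 3, UtyGT 4, UtyGT 7 or WT 3, and 0.0602 with GC correction. Without UtyGT 6, 5 of the 24 genes were called lower, and 2 without WT 7.

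**Figure D4:**
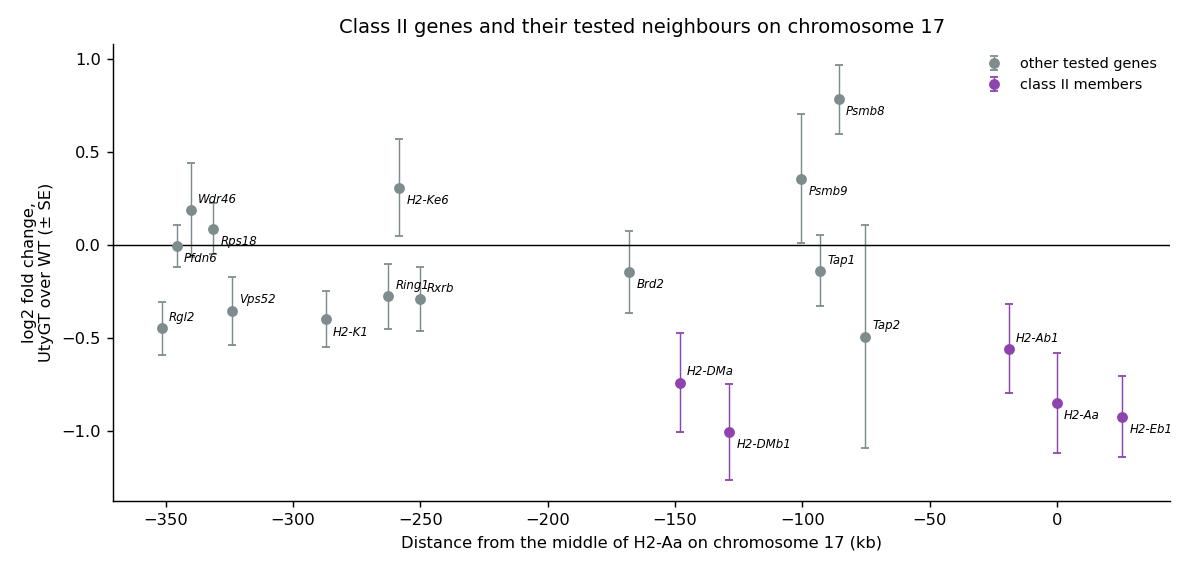
Log2 fold change of UtyGT over WT with its SE (vertical axis) of tested genes around the class II genes of chromosome 17, against distance from the middle of H2-Aa in kb (horizontal axis), with members in purple and other genes in grey. All 5 members lie at -0.56 or below, whereas Psmb8, between H2-DMb1 and H2-Ab1, lies at 0.79.

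Markers of the cells that could hold class II were examined beside these results. Pan-leukocyte markers summed to 84.0 to 154 CPM in UtyGT (median 108) and 84.6 to 124 CPM in WT (median 103), and 0 of 8 tested were called by edgeR or DESeq2 (0 at an unadjusted p under 0.05). Ptprc, the CD45 gene, averaged 7.71 ± 2.59 CPM in UtyGT and 5.87 ± 0.840 CPM in WT (log2 fold change 0.39 ± 0.21, edgeR adjusted p = 0.245). The summed levels of leukocyte markers overlapped almost fully, and UtyGT 6, low in class II, had the highest sum at 154 CPM. UtyGT 6 also differed from the other UtyGT libraries in markers of other cells. Its cardiomyocyte markers summed to 104482 CPM, against 58196 to 70545 CPM in the others. In WT libraries they summed to 57529 to 113038 CPM (median 88028), a range that holds the value of UtyGT 6. The endothelial genes of UtyGT 6 summed to 1087 CPM, against 1968 to 2822 CPM in the other UtyGT libraries. Much of this sum was the single gene Fabp4, which ran from 166 to 1732 CPM over UtyGT libraries. The sum without Fabp4 was not taken, so a low level of endothelial genes in general is not read from it. The cause of these differences in UtyGT 6 was not tested, so nothing on leukocytes is read from this library.

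Macrophage markers summed to 456 to 745 CPM in UtyGT (median 539) and 495 to 754 CPM in WT (median 539). Of 17 tested, 1 was called higher and 0 lower (median 0.27), with 3 higher and 3 lower at an unadjusted p under 0.05 and 1 higher and 0 lower by DESeq2. The marker called was Lyve1, a hyaluronan receptor gene expressed by lymphatic endothelium and by some resident macrophages, at 11.0 to 23.6 CPM in UtyGT (median 17.7) and 4.08 to 18.1 CPM in WT (median 7.57). It averaged 17.9 ± 4.98 CPM in UtyGT and 9.46 ± 4.83 CPM in WT (log2 fold change 0.92 ± 0.27, edgeR adjusted p = 0.0460). This call was lost with RLE scaling (0.0514), without composition scaling (0.0751), without a count filter (0.0809), with GC correction (0.0699), and without UtyGT 1, 2, 3, 5 or 7 or without WT 1, 2, 3, 4 or 5 (0.0587 to 0.102). Lower means, none of them called, were measured for 3 markers picked after their values were seen, Cx3cr1 (16.998 ± 6.63 CPM in UtyGT and 28.6 ± 12.6 CPM in WT, edgeR adjusted p = 0.119), C1qa (97.5 ± 47.04 CPM in UtyGT and 156 ± 60.2 CPM in WT, edgeR adjusted p = 0.123) and Cd163 (8.90 ± 2.72 CPM in UtyGT and 12.1 ± 2.02 CPM in WT, edgeR adjusted p = 0.164). Of the 17 tested, 12 had a log2 fold change above 0 and 5 below 0. Besides Lyve1, the markers higher at an unadjusted p under 0.05 were F13a1 and Lyz2, neither of them called. Their log2 fold changes were 0.50 ± 0.19 for F13a1 (edgeR adjusted p = 0.114) and 0.30 ± 0.12 for Lyz2 (edgeR adjusted p = 0.121). The lower mean of C1qa was not shared by C1qb (log2 fold change 0.04 ± 0.20) or C1qc (0.05 ± 0.15). With the mean of the members, genotype-centred over 14 libraries, r was 0.74 for Cd163, 0.69 for Cx3cr1, -0.26 for C1qa and -0.22 for Lyve1, given as a description. Over the tested macrophage markers r ran from -0.41 (Aif1) to 0.74 (Cd163). Other lists reached like values, so this likeness was not particular to macrophage markers. There r ran from -0.21 (Tek) to 0.72 (Esam) for endothelial genes, and from 0.10 (Irf8) to 0.72 (Cd83) for dendritic cell markers. For B cell markers it ran from 0.09 (Ebf1) to 0.66 (Ighm). Macrophage markers called higher numbered 2 without UtyGT 6 or without WT 7, and 1 was called lower without UtyGT 6.

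Among dendritic cell markers, which summed to 42.7 to 92.2 CPM in UtyGT and 48.7 to 84.5 CPM in WT, 4 of 14 were tested and 0 called by edgeR or DESeq2 (median -0.04, with 1 lower at an unadjusted p under 0.05). The lower marker was Cd83, at 3.11 ± 1.02 CPM in UtyGT and 4.81 ± 1.58 CPM in WT (log2 fold change -0.64 ± 0.26, edgeR adjusted p = 0.138). Of the dendritic cell sum, Zbtb46, which endothelial cells also express, gave 47.8 CPM in UtyGT and 49.1 CPM in WT on average. Defining markers were at or near 0, with summed counts of 35 in UtyGT and 42 in WT for Itgax, 12 in UtyGT and 19 in WT for Xcr1, 3 in each for Clec9a, 1 in UtyGT and 8 in WT for Cd209a, and 0 in UtyGT and 1 in WT for Flt3. In WT 7, which had the highest class II level, Itgax was also highest, at only 21 counts. WT 7 was also the highest WT library in the MHC class I sum, with 1049 CPM against 683 CPM in WT 1, the next. In interferon-induced GTPases it had 279 CPM, against 164 CPM in WT 1, the next of WT. B cell markers summed to 25.7 to 40.2 CPM in UtyGT and 25.1 to 40.7 CPM in WT, with 0 of 3 tested genes called (0 at an unadjusted p under 0.05 and 0 by DESeq2) and summed counts of 3 in UtyGT and 1 in WT for Cd79a. Ebf1 alone gave 16.8 CPM of the B cell sum in UtyGT and 17.4 CPM in WT on average. T and NK cell markers summed to 1.30 to 5.05 CPM in UtyGT and 2.01 to 4.57 CPM in WT, and none had enough counts for the fit. At these counts a change in dendritic cells or B cells was not detectable.

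Markers of other cells were also called lower. Red cell genes summed to 1071 to 5118 CPM in UtyGT (median 3231) and 3193 to 6876 CPM in WT (median 5071), with 2 of 5 tested genes called lower (median -0.75). All 5 had a log2 fold change below 0, with 3 lower at an unadjusted p under 0.05 by edgeR and 3 called lower by DESeq2. Hba-a1, an alpha-globin gene, averaged 453 ± 193 CPM in UtyGT and 997 ± 309.9 CPM in WT (log2 fold change -1.14 ± 0.28, edgeR adjusted p = 0.0220), a call that unfiltered counts ended (0.0592), and the other was its near-identical copy Hba-a2, which can share its reads. Hba-a1 ranged between 163 and 692 CPM in UtyGT and between 695 and 1449 CPM in WT, without overlap. All 5 tested red cell genes had a positive genotype-centred r with the mean of the members, given as a description. It was 0.67 for Alas2, 0.61 for Hbb-bt, 0.57 for Hbb-bs, 0.46 for Hba-a2 and 0.44 for Hba-a1. Single genes of other lists reached like values. The lowest r was -0.41 in the macrophage list, -0.21 in the endothelial list, 0.10 in the dendritic cell list and 0.09 in the B cell list. The cause was not tested. UtyGT 7, lowest in class II, was also lowest in red cell genes at 1071 CPM. UtyGT 6, with 2778 CPM, was not among the lowest pair. Of red cell genes, 1 was called without UtyGT 1, UtyGT 3, WT 2, WT 3, WT 4 or WT 5.

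Endothelial genes summed to 1087 to 2822 CPM in UtyGT (median 2072) and 1610 to 2355 CPM in WT (median 1660), with Fabp4 giving 1080 ± 533 CPM of this in UtyGT and 577 ± 338 CPM in WT. Of 13 tested, 2 were called lower and 0 higher (median -0.35), with 1 higher and 6 lower at an unadjusted p under 0.05 and 5 lower and 0 higher by DESeq2, and 2 were called higher without UtyGT 6. Pecam1, which encodes CD31, averaged 97.0 ± 17.8 CPM in UtyGT and 139 ± 27.5 CPM in WT (log2 fold change -0.51 ± 0.14, edgeR adjusted p = 0.0326). Its call was lost without UtyGT 1, 2, 3 or 7 or without WT 2, 3, 4 or 5 (0.0509 to 0.0767), and endothelial genes called lower numbered 0 without UtyGT 1, 3 or 7 or WT 2, 3, 4 or 5, 1 without UtyGT 2 or 5, 4 without WT 1 and 6 without UtyGT 6. The other was Tie1, an endothelial receptor tyrosine kinase gene (log2 fold change -0.50 ± 0.14, edgeR adjusted p = 0.0394, and 0.251 with GC correction). The part of cell composition in the class II difference was not tested.

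**Figure D5:**
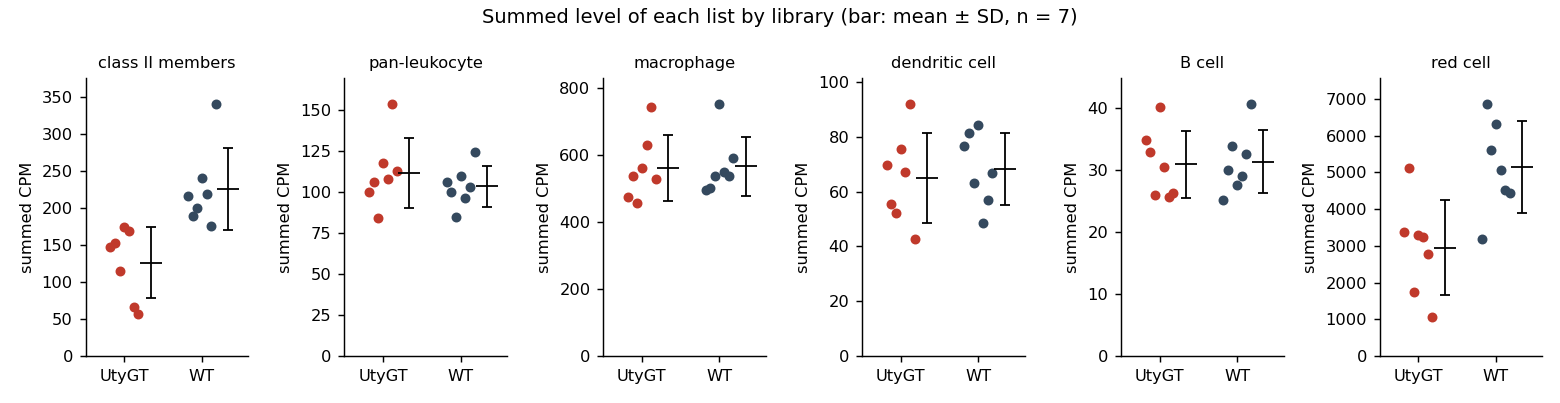
Summed CPM (vertical axes, each from 0) of the class II members and of pan-leukocyte, macrophage, dendritic cell, B cell and red cell lists, 1 panel each, in 7 UtyGT libraries (left, red) and 7 WT libraries (right, blue), with bars at the mean ± SD. The class II sum, of genes picked from this contrast, lies between 56.5 and 174 CPM in UtyGT and between 175 and 341 CPM in WT. Pan-leukocyte and macrophage sums overlap.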

How the data were processed

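RNA was measured in 14 left ventricle libraries, 7 UtyGT and 7 WT, grouped by the sample labels. The deposited counts per gene were made by the authors from reads aligned to GRCm38/mm10, and featureCounts 1.6.0 is named in the submitters' processing notes, with CASAVA 1.4, FastQC, STAR and DESeq2 1.22.2. Among the deposited counts are 5 entries without a gene, written as htseq-count would, so that the counter is not settled, and the strand setting is not given in the sources used here. Such entries, which held 45.9% to 49.1% of the reads of a library, were excluded, as were 4984 annotated entries without counts. The deposited baseMean is a signal made by the authors with DESeq2, the mean of counts divided by size factors. The deposited log2 fold changes with their errors, the test statistic (a score) and the p-values come from the authors' own comparison of WT over UtyGT. None of these columns was used.

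The fit used edgeR 4.0.16 (limma 3.58.1, R 4.3.3): filterByExpr with a minimum count of 10, TMM scaling, a robust quasi-likelihood F test of genotype with no covariate, and p-values adjusted by Benjamini and Hochberg over 11563 genes. The study used DESeq2 for this comparison, which is an alternative here (DESeq2 1.42.0). Log2 CPM for correlations used a prior count of 2. The biological coefficient of variation was 26.2%. The methods were tested on simulated data. Other alternatives were RLE scaling, no composition scaling, no count filter, a filter at 1 CPM in 7 libraries, a lowess correction for GC content (span 0.3, 3 iterations, on 11550 genes), a prior count of 0.5, and leaving out libraries. Leaving out WT 4 and UtyGT 6 together came from an earlier analysis of these data, and leaving out UtyGT 6 and UtyGT 7 together was chosen after seeing the data. Intervals and limits for counts cover counting error only, since molecular identifiers are not named, while 95% intervals of fold changes include the spread between libraries.

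The members, the lists and the tests were chosen with earlier results of these data known. Named genes are the members, up to 4 called genes per list or its first gene where none was called, some fixed partners (H2-Ea-ps, H2-DMb2, H2-Oa, H2-Ob, Rfx5, Ctss, Ifi30), up to 6 called neighbors, the 10 genes most like the members, and Uty. H2-Eb2, Dexi, Mir5107 and the low counts of Xcr1, Clec9a, Cd209a, Flt3 and Cd79a, and Zbtb46, Ebf1 and Fabp4, were added after their values were seen. The same holds for F13a1, Lyz2, C1qb, C1qc, Aif1, Cd83, Irf8, Ighm, Esam, Tek, Alas2, Hbb-bt and Hbb-bs. H2-Ea was not used here, and some results that the rule names are left out. Lists cover promoter factors, endosomal processing, CD74 ligands, interferon gamma signalling, interferon-induced GTPases, class I and cell types, and those of fibroblasts (0 of 9 tested genes called, 2 higher at an unadjusted p under 0.05 and 0 called by DESeq2) and cardiomyocytes (1 of 10 called higher, Ryr2, edgeR adjusted p = 0.0347, lost with no count filter or GC correction and without UtyGT 1, 2, 3 or 7 or WT 2, 3, 4, 5 or 6, at 0.0555 to 0.0785) were counted too. Gene coordinates on GRCm38 were copied from the deposited table. Promoters and their starts come from RefSeq on GRCm38.p6, and the letters and spacing searched there were set after reading the members' sequences. Sequence shared by H2-DMb1 and H2-DMb2 was measured on GENCODE M21 transcripts in windows of 50 nt, after an end-to-end alignment had been set aside because the transcripts end at different places.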

Additional observations from a re-analysis of the deposited data

Results flagged for a closer look

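Each genotype of 41 named genes was checked for a library far from the other 6, and 13 of 82 groups held one, where chance alone flags about 1 in 20 groups and groups of few counts or related genes are not independent. Among the members, WT 7 stood apart in H2-Aa with 165 CPM (nearest other WT library 97.9 CPM) and in H2-Ab1 with 47.5 CPM (nearest 32.04 CPM), and UtyGT 7 in H2-DMa with 1.40 CPM (nearest other UtyGT library 3.76 CPM). WT 7 was also apart in Ctss with 40.1 CPM (nearest 25.5 CPM) and in Itgax with 2.97 CPM (nearest 0.825 CPM). Single libraries stood out as well for Mif in UtyGT 6 with 48.8 CPM, Synpo in UtyGT 6 with 84.8 CPM and in WT 4 with 172 CPM, Pecam1 in WT 4 with 197 CPM, and Rnf152 in WT 6 with 4.96 CPM, the only one of these on the low side. At the limit of detection were Ifng in UtyGT 6 with 0.210 CPM, Cd3e in WT 3 with 0.544 CPM and H2-Ob in WT 5 with 1.53 CPM. The part of these libraries in other results was not tested beyond leaving each out.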

How the results depend on the processing

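The log2 fold changes of all 7 members stayed below 0 under all 22 alternatives, and none moved by more than the spread between libraries. Leaving out single libraries gave -1.26 to -0.95 for Cd74, -0.97 to -0.68 for H2-Aa, -0.63 to -0.41 for H2-Ab1, -0.999 to -0.80 for H2-Eb1, -0.86 to -0.58 for H2-DMa, -1.14 to -0.90 for H2-DMb1 and -0.90 to -0.48 for Ciita. In the same runs members called numbered 1 to 5, all genes called 276 to 919 higher and 146 to 1329 lower, pathway genes 2 to 5 higher and 0 to 5 lower, cell type genes 0 to 6 higher and 1 to 11 lower, neighbors 1 higher and 0 to 5 lower, and 3 to 9 of the 10 most alike genes were kept. The widest counts came without UtyGT 6, and the cause was not tested.

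All genes called, 543 higher and 386 lower, became 337 higher without a count filter, 309 higher and 247 lower with GC correction, and 672 lower with DESeq2. Lower calls numbered 834 without WT 4 and UtyGT 6 and 780 without UtyGT 6 and UtyGT 7. Pathway genes, 2 higher and 0 lower, became 2 lower with DESeq2, and 4 higher and 3 lower without either pair of libraries. Cell type genes, 2 higher and 4 lower, became 1 higher with RLE scaling or no composition scaling, 0 higher and 2 lower with no count filter or GC correction, and 8 lower with DESeq2. Neighbors, 1 higher and 1 lower, became 2 higher and 0 lower with GC correction, 2 lower with DESeq2 and 3 lower without either pair. With DESeq2 4 members were called, H2-Aa being added, and with GC correction 3, H2-Aa in place of Cd74. The cause was not tested. No paired analysis was possible because the columns' replicate numbers match no sample label. Ciita, DM and the markers of dendritic and B cells are limited by depth.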
